A study of Mus musculus with 8 samples.

Results

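The genes described here encode the perilipins, the CIDE proteins and the machinery that starts triglyceride breakdown at the lipid droplet of hepatocytes. They are Plin2, Plin3, Plin4, Plin5, Cidea, Cideb, Cidec, G0s2, Pnpla2 and Abhd5. Probes were assigned by the gene ID in the array annotation, or failing that by its accession or its symbol, older symbols included. This gave 11 probes for the 10 genes out of 45281 probes and 20289 genes in all. Only Plin5 had a second probe. For Plin5, and for any other gene with several probes, the brightest probe by its mean level stands for the gene.

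The 8 Illumina bead arrays measured total RNA of isolated primary hepatocytes from the livers of male C57Bl/6 mice. The mice had been fed either a normal diet (chow, 4 arrays numbered 1, 2, 3 and 5) or a high fat diet (HFD, 4 arrays numbered 8, 10, 11 and 12). All cells were then cultured alike. Their medium contained serum (10%), insulin (100 nM), dexamethasone (400 nM) and EGF (1.5 nM). Medium with 10 nM insulin replaced it after 4 h, and RNA was taken 24 h after that. The values are therefore those of cultured cells, about a day away from the diet. The series text calls the arrays biological replicates, and how many mice stand behind each array is not given in the sources used here. If an array shares a source with another, the p-values below measure a spread that is partly technical.

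A lipid droplet is a core of triglyceride and sterol ester under a single layer of phospholipid, to which coat proteins bind. Perilipins cover the surface and control the access of lipases. CIDE proteins gather where droplets touch and move lipid from one to the next, and CIDEB also acts in the loading of very low density lipoprotein in hepatocytes. Breakdown begins with adipose triglyceride lipase, the product of Pnpla2, which the cofactor ABHD5 activates and the small protein G0S2 inhibits. Fatty livers are known for high amounts of perilipin 2, and several of these genes are known targets of the fatty acid receptors of the PPAR family.

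Levels are the deposited log2 values, given as mean ± SD over n = 4 arrays per diet unless stated. A difference is HFD minus chow on that scale, with its standard error (SE). Adjusted p-values come from limma, a linear model fitted to all genes, with Benjamini-Hochberg adjustment over 20289 genes and a threshold of 0.05. The median of all probes was 7.51, so a level near 7.5 is close to background. In that range a difference in the log2 value understates the difference in RNA. The third chow array stood apart from the others: its correlation with them across probes was 0.946 to 0.952, against 0.989 or more among the other 7. Differences and counts are therefore given with and without chow 3. The hepatocyte markers Apoa1 (14.62 ± 0.06 in chow) and Ttr (14.25 ± 0.27) were near the top of the scale, which ended at 14.91. The Alb probe read only 8.37 ± 0.29, and Tat, Tdo2 and Pck1 read below 8 on every array. Of 10 hepatocyte markers 1 rose (Cps1, by 0.51, adjusted p = 0.0105) and 0 fell, with a list median of -0.03; without chow 3 Cps1 was again the 1 that passed (0.55, adjusted p = 0.00353; list median -0.007).

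Of the 10 droplet genes, 1 fell in HFD hepatocytes (Cideb) and 0 rose. The background over all genes was 4.04%, of which 1.47% lay higher in HFD and 2.57% lower. At an unadjusted p under 0.05 there were 4 of the 10, against 14.1% of all genes. In 3 of the 10 all HFD arrays lay below all chow arrays (Cideb, Cidec and Pnpla2), as they did in 6.47% of all genes. Without chow 3, 3 of the 10 differed, Cideb and Cidec lower and Plin5 higher, against 9.17% of all genes, 4.34% lower and 4.84% higher. The diets then did not overlap in 5 of the 10, Plin2 and Pnpla2 being the others, against 18.0% of all genes. The median difference of the 10 was -0.07, or -0.11 without chow 3, and that of all genes -0.005 (0.004 without chow 3). These shares rest on 10 genes.

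**Figure D1:**
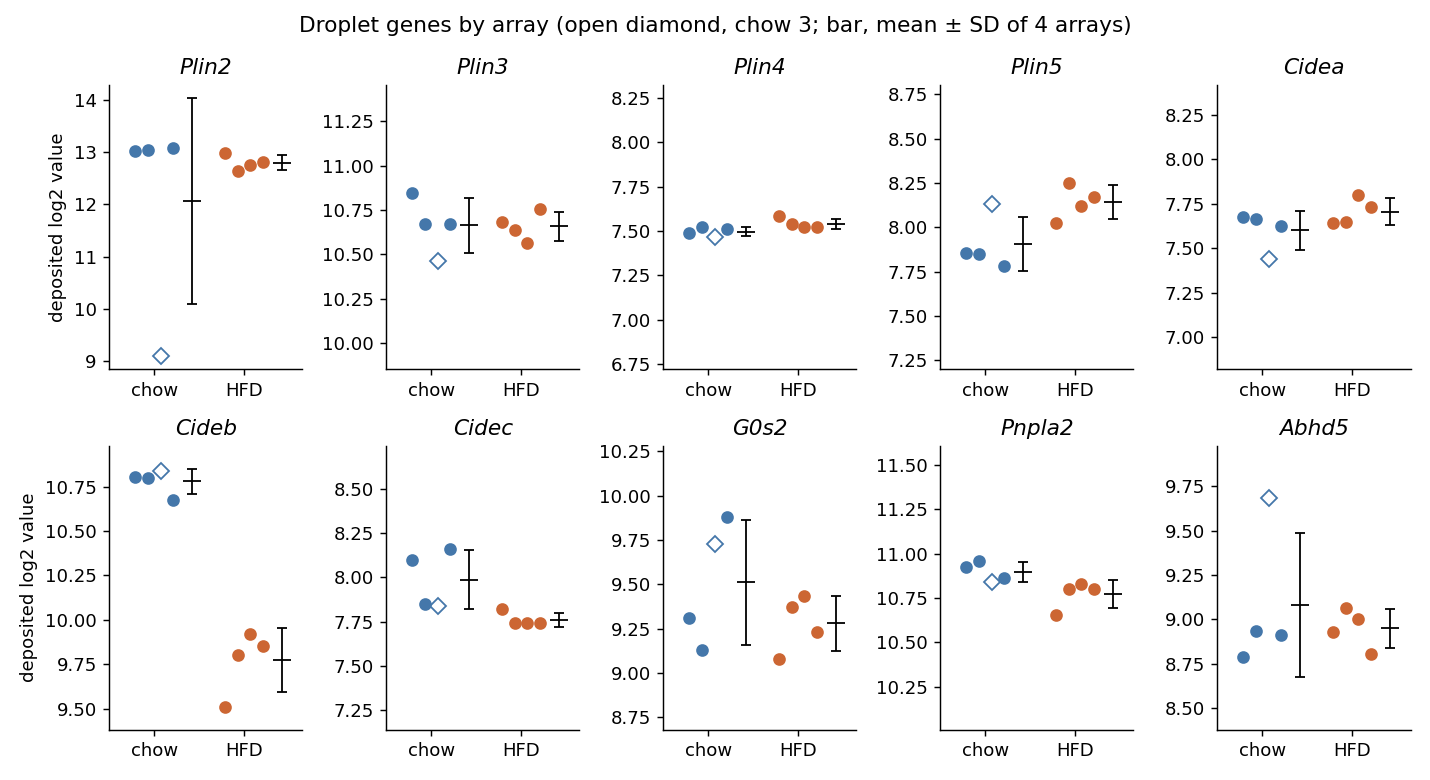
Level of each droplet gene on every array (vertical axes, deposited log2 value, with a different range in each panel; horizontal axis, diet). Circles are arrays, the open diamond is chow 3, and the bars are mean ± SD of 4 arrays; the HFD arrays of Cideb, at 9.51 to 9.92, lie below its chow arrays, at 10.68 to 10.84, while Plin2 on chow 3, at 9.10, lies far below the other 7 arrays.

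Cideb is the CIDE gene of the normal liver, and its protein is known there for droplet fusion and lipoprotein lipidation. It read 10.80, 10.80, 10.84 and 10.68 on chow 1, 2, 3 and 5, and 9.51, 9.80, 9.92 and 9.85 on HFD 8, 10, 11 and 12. Every HFD array lay below every chow array, and HFD 8 was the lowest. The mean fell from 10.78 ± 0.07 to 9.77 ± 0.18. The diets differed by -1.01 (SE 0.087, adjusted p = 0.000891), a level 2.01-fold lower in HFD, with a 95% confidence interval of -1.21 to -0.81. An exact permutation of the diet labels (70 ways, 2-sided) gave p = 0.0286, the smallest possible with 4 against 4.

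Chow 3, which stood apart in other genes, read Cideb within 0.08 of the chow 1, 2 and 5 mean. Without it the difference was -0.99 (SE 0.091, adjusted p = 0.000426). Leaving out any other array gave -1.06 to -0.92. By its p-value Cideb ranked 65th of the 20289 genes with all arrays and 167th without chow 3. The Cideb locus overlaps Nop9 and Ltb4r2 in the RefSeq annotation. Nop9 read 8.70 ± 0.31 in chow and 8.67 ± 0.14 in HFD (difference -0.03, adjusted p = 0.968), and Ltb4r2 read 7.54 ± 0.05 and 7.47 ± 0.05, at background. Without chow 3 their differences were 0.12 (adjusted p = 0.498) and -0.08 (adjusted p = 0.318). Where the single Cideb probe lies was not analysed here, so its overlap with either transcript was not checked.

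The start of the Cideb gene is shown because Cideb is the droplet gene that changed with every array included, and the start of Plin2 for comparison. No window of Cidea was searched. The 300 bases around the annotated start, 250 before and 50 after, were searched in 9 of the 10 genes (11 windows). Both strands were searched for 3 motifs. They were CAAAGTCC, the core of the site of the hepatocyte factor HNF4A, the E-box CACGTG, and the direct repeat bound by PPAR with its partner RXR, AGGNCA followed after 1 base of any kind by AGGNCA again. The shares of all 32851 promoter windows that hold them were 1.42%, 7.15% and 0.381%. Among the windows of these genes there was 1 match to the HNF4A core, in Cideb, 1 E-box, in Plin2, and none to the direct repeat. Capitals mark the match in the 30 bases printed, which are RefSeq sequence of the GRCm38.p6 build read 5′ to 3′ on the gene's strand.
Cideb, chr14:55758492-55758521, minus strand, core on the opposite strand at -86 to -79 from the start: acacaaacggcGGACTTTGgttacttctac
Plin2, chr4:86670046-86670075, minus strand, E-box from -4 to 2, across the start: cagctgggctatCACGTGgctcggaggctt
A match describes these letters only. The arrays did not measure binding there.

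Cidec, known as Fsp27 in mice, encodes the CIDE protein of fat cells that also appears in fatty liver. It was dim, at 8.10, 7.85, 7.84 and 8.16 on chow 1, 2, 3 and 5. On HFD 8, 10, 11 and 12 it read 7.82, 7.74, 7.74 and 7.74. The HFD arrays all lay below the chow arrays, by a gap of 0.02 between HFD 8 and chow 3. Its difference of -0.22 (SE 0.077, adjusted p = 0.208) missed the threshold. Without chow 3 the difference was -0.27 (SE 0.070, adjusted p = 0.0471), just past it, and without any other array the adjusted p ran from 0.163 to 0.411.

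Cidea encodes the CIDE protein best known from brown fat. It read 7.60 ± 0.11 in chow and 7.71 ± 0.07 in HFD, below 8 on every array, and the groups overlapped (difference 0.10, SE 0.062, adjusted p = 0.556; without chow 3, 0.05, adjusted p = 0.679). No direction can be read for Cidea at this level. Within the CIDE family the diets did not overlap for Cideb and Cidec, with or without chow 3. Cideb passed the threshold in both comparisons, Cidec without chow 3 over genes but not over probes, and Cidea in neither. Whether the differences of the family's genes differ from each other was not tested.

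**Figure D2:**
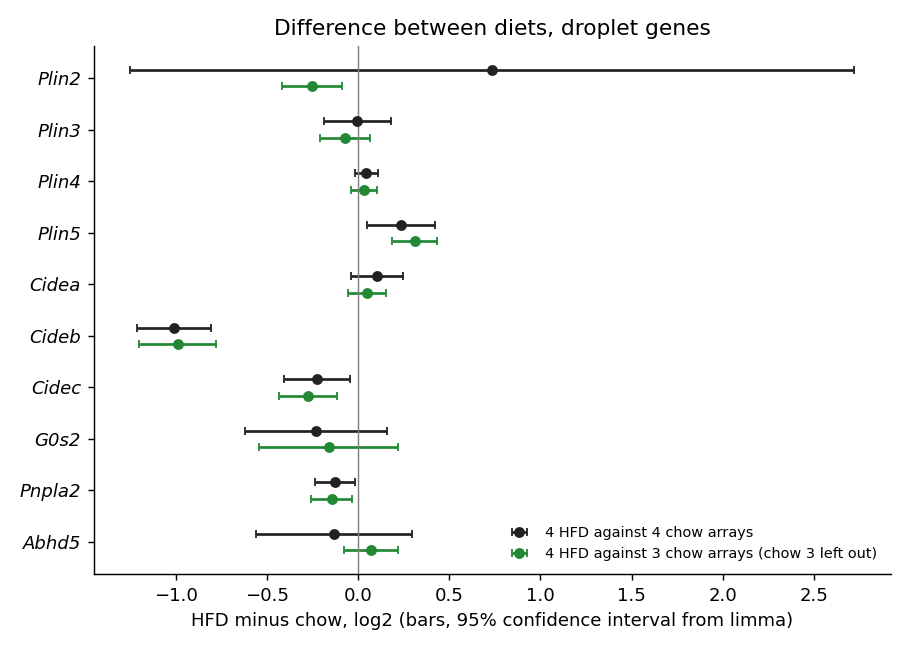
Difference between the diets for each droplet gene (horizontal axis, HFD minus chow, log2) with its 95% confidence interval from limma, for all 8 arrays in black and without chow 3 in green. Cideb lies near -1.0 in both; Plin2 moves from 0.73 with a very wide interval to -0.25 with a narrow one.

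Plin2, the perilipin of most cell types and the usual marker of hepatocyte lipid, had no measurable difference with all arrays, and its value depended on a single one. It read 13.03, 13.04, 9.10 and 13.08 on chow 1, 2, 3 and 5, and 12.98, 12.64, 12.75 and 12.81 on HFD 8, 10, 11 and 12. The chow arrays other than chow 3 agreed within 0.05, and chow 3 minus their mean was -3.94. With all 8 arrays the difference was 0.73 (SE 0.860, adjusted p = 0.816), and its 95% confidence interval ran from -1.25 to 2.72. Without chow 3 the sign turned, to -0.25 (SE 0.071, 95% confidence interval -0.41 to -0.09, adjusted p = 0.0684). In that comparison each HFD array lay below each chow array, but the difference missed the threshold. With chow 3 down-weighted by limma's array weights it was -0.064 (adjusted p = 0.962). No comparison gave Plin2 a higher level in HFD hepatocytes past the threshold. The interval without chow 3, which is not adjusted over genes, held only values below 0.

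The Plin2 value of chow 3 was part of a wider pattern on that array. Of 20289 genes, chow 3 read 135 at least 2 lower than the mean of chow 1, 2 and 5, and 0 at least 2 higher. Plin2 was the 11th lowest. On each of the other 7 arrays, 0 genes lay at least 2 below the mean of the other arrays of the same diet, and at most 2 lay as far above. For 41 of the 135 genes a further probe with a mean above 9 in the other chow arrays was present (54 probes), of which 34 were at least 1 lower on chow 3 and 22 at least 2 lower. Plin2 has a single probe, so its value could not be checked in this way.

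Plin3, a perilipin that moves from the cytosol to young droplets, did not differ measurably. It read 10.66 ± 0.16 in chow and 10.66 ± 0.08 in HFD, with overlapping groups. The difference was -0.005 (SE 0.080, 95% confidence interval -0.19 to 0.18, adjusted p = 0.994), and -0.071 without chow 3 (adjusted p = 0.643). Leaving out chow 1 (0.056), HFD 10 (0.003) or HFD 11 (0.028) turned the sign. Plin4, a perilipin of fat and muscle, was at background on all arrays, at 7.50 ± 0.03 in chow and 7.54 ± 0.03 in HFD (difference 0.05, adjusted p = 0.573; without chow 3, 0.03, adjusted p = 0.685).

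Plin5 encodes the perilipin of oxidative tissues, which links droplets to mitochondria and binds both the lipase and its cofactor. Its brighter probe was dim, at 7.86, 7.85, 8.13 and 7.78 on chow 1, 2, 3 and 5. On HFD 8, 10, 11 and 12 that probe read 8.03, 8.25, 8.12 and 8.17. Chow 3 lay inside the HFD range and the other chow arrays lay below it. With all arrays the difference was 0.24 (SE 0.082, adjusted p = 0.211). Without chow 3 it was 0.31, or 1.24-fold (SE 0.053, 95% confidence interval 0.19 to 0.43, adjusted p = 0.00820), and with array weights 0.30 (adjusted p = 0.0139), past the threshold in both. The second Plin5 probe lay at background, at 7.50 ± 0.03 in chow and 7.56 ± 0.03 in HFD. Its HFD arrays all lay above its chow arrays, chow 3 included, as in 3.40% of all probes. The difference of 0.063 missed the threshold (adjusted p = 0.451 over all 45281 probes, of which 2.09% differed), and so did that of 0.064 without chow 3 (adjusted p = 0.424). Over all probes 1 of the 11 differed with 8 arrays and 2 without chow 3, where 5.96% of all probes did.

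Pnpla2 encodes adipose triglyceride lipase, the enzyme of the initial cleavage of triglyceride. It read 10.92, 10.96, 10.84 and 10.87 on chow 1, 2, 3 and 5. On HFD 8, 10, 11 and 12 it read 10.66, 10.80, 10.83 and 10.80. All HFD arrays lay below all chow arrays, by a gap of 0.01 between HFD 11 and chow 3. The difference was small, at -0.13 (SE 0.047, 95% confidence interval -0.23 to -0.02), and missed the threshold with all arrays (adjusted p = 0.256) and without chow 3 (-0.15, adjusted p = 0.121). The 95% confidence interval without chow 3 was -0.26 to -0.03, or 0.84 to 0.98 times the chow level if the scale is plain log2. That interval is not adjusted over genes, so it does not replace the missed threshold.

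G0s2, the inhibitor of that lipase, varied more within a diet than between them. It read 9.31, 9.13, 9.72 and 9.88 on chow 1, 2, 3 and 5, and 9.08, 9.37, 9.43 and 9.23 on HFD 8, 10, 11 and 12, with overlapping groups. The difference of -0.23 (SE 0.168, adjusted p = 0.666) had a 95% confidence interval from -0.62 to 0.16, and without chow 3 it was -0.16 (adjusted p = 0.739). The G0s2 interval thus holds values on both sides of 0.

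Abhd5 encodes the cofactor that activates the lipase, also called CGI-58. It read 8.79, 8.94, 9.68 and 8.91 on chow 1, 2, 3 and 5, and 8.93, 9.06, 9.001 and 8.81 on HFD 8, 10, 11 and 12. Chow 3 was the highest of all 8 arrays, 0.80 above the mean of the other chow arrays, the 73rd highest such gap of 20289 genes. The remaining arrays of both diets overlapped. The difference was -0.13 with chow 3 (SE 0.184, adjusted p = 0.858) and 0.069 without it (SE 0.065, 95% confidence interval -0.08 to 0.22, adjusted p = 0.699). The lipase and its 2 direct regulators thus had no difference past the threshold, with or without chow 3.

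**Figure D3:**
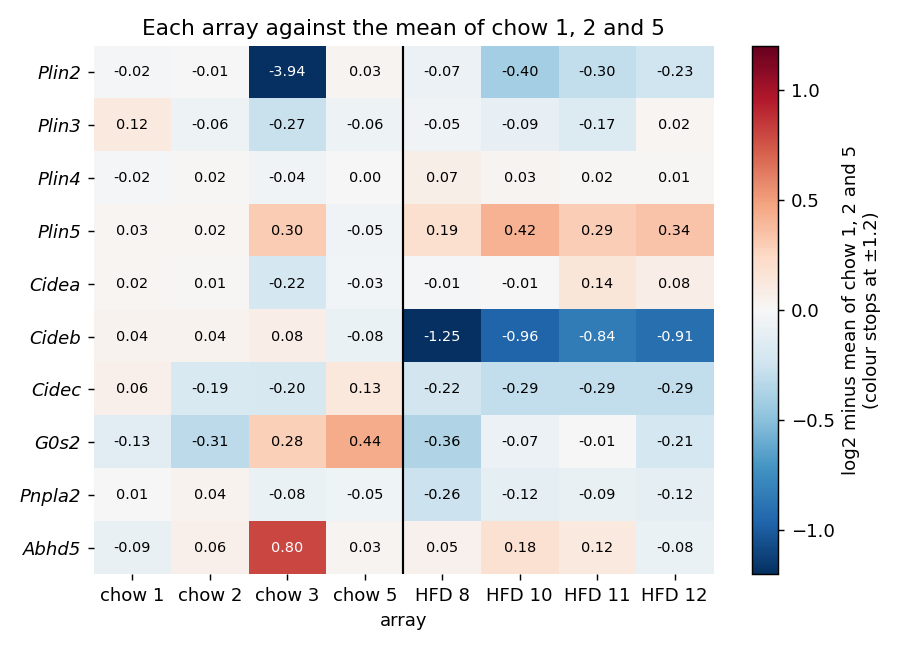
Level of each droplet gene on each array (rows, genes; columns, arrays) minus the mean of chow 1, 2 and 5, in log2, printed in each cell and coloured up to ±1.2. The Cideb row runs from -1.25 to -0.84 on the HFD arrays, and the chow 3 column holds both the lowest value, -3.94 for Plin2, and the highest, 0.80 for Abhd5.

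Among the HFD arrays the SD of the 10 genes was 0.03 to 0.18. The chow SD was the larger one for 7 of the 10 with chow 3 and for 3 without it. HFD 8 was the lowest HFD array for Cidea, Cideb, G0s2, Pnpla2 and Plin5 and the highest for Plin2, Plin4 and Cidec. The replicates have no order, and without HFD 8 Cideb differed by -0.92 (adjusted p = 0.000387) and Pnpla2 by -0.09 (adjusted p = 0.438).

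Other genes of the droplet surface and of droplet assembly mostly did not pass the test. For this list and those that follow, the shares over all genes were 2.57% lower and 1.47% higher in HFD. Without chow 3 they were 4.34% and 4.84%. Of 17 listed, 15 were measured, 1 fell and 0 rose, with a median of 0.03. The gene that fell was Hsd17b11, a dehydrogenase found on droplets, from 9.38 ± 0.11 to 8.997 ± 0.147 (-0.38, SE 0.083, adjusted p = 0.0467). Hsd17b11 had 4 probes, with differences between -0.38 and 0.01. Those with means of 7.36 and 7.64 were close to background. A further probe, with a mean of 8.49, read 8.43 to 8.89 on the chow arrays and 8.21 to 8.45 on the HFD arrays. Hsd17b11 missed the threshold when chow 1, 2 or 5 or HFD 8, 11 or 12 was left out, with an adjusted p of at most 0.139, and with limma's trend and robust settings (0.0622). Without chow 3, 2 fell and 1 rose. The added ones were Rab18 (-0.29, adjusted p = 0.0321), a small GTPase of the droplet surface, and Bscl2 (0.29, adjusted p = 0.0196), which encodes seipin, the protein of droplet birth. Rab18 and Bscl2 were chosen for naming after their values were seen, as were Mgll, Lipe, Pparg, Ppara, Fgf21 and Acaa1b below and the hepatocyte markers above other than Cps1.

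Of 14 other lipid hydrolases, 1 fell and 0 rose (median -0.01). Ces1d, a carboxylesterase of the endoplasmic reticulum known as triacylglycerol hydrolase, fell from 9.60 ± 0.29 to 8.76 ± 0.11, 1.79-fold (-0.84, SE 0.134, adjusted p = 0.0131). Every HFD array of Ces1d, at 8.67 to 8.89, lay below every chow array, at 9.43 to 10.03. Without chow 3 it was -0.88 (adjusted p = 0.00537), and its call was lost without HFD 12 (-0.81, adjusted p = 0.0521). Mgll, the monoglyceride lipase of the last step of lipolysis, had 8.12 ± 0.28 in chow and 8.54 ± 0.11 in HFD (0.42, adjusted p = 0.160), and passed without chow 3 (0.53, adjusted p = 0.0117). The gene of hormone-sensitive lipase, Lipe, was at background in both diets, at 7.53 ± 0.07 and 7.57 ± 0.07 (difference 0.04, or 0.06 without chow 3).

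Of 10 transcription factors and coactivators known to act on droplet genes, 1 fell and 0 rose (median 0.15). Mlxipl, which encodes the carbohydrate-responsive factor ChREBP, fell from 11.30 ± 0.15 to 10.63 ± 0.04 (difference -0.67, SE 0.070, adjusted p = 0.00192), and a second probe gave -0.57. Without chow 3 the difference was -0.61 (adjusted p = 0.000357). Pparg, the PPAR of fat storage, read 8.24 ± 0.30 in chow and 8.55 ± 0.15 in HFD (0.31, adjusted p = 0.436) and passed without chow 3 (0.45, adjusted p = 0.0158). Ppara, the PPAR of fatty acid oxidation, read 7.68 ± 0.03 and 7.61 ± 0.05, close to background (without chow 3, -0.06, adjusted p = 0.435).

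Of 18 listed targets of PPAR-alpha other than the droplet genes, 14 were measured, 3 fell and 0 rose (median -0.04). Over all genes 2.57% were lower and 1.47% higher. Angptl4, an inhibitor of lipoprotein lipase, fell from 12.60 ± 0.11 to 11.90 ± 0.15 (difference -0.70, SE 0.084, adjusted p = 0.00395). A second Angptl4 probe, close to background with a mean of 7.58, gave -0.12. Acadm, a dehydrogenase of fatty acid oxidation, fell by 0.34 (SE 0.059, adjusted p = 0.0189), and its call was lost without HFD 11 or HFD 12 (adjusted p up to 0.0689). Acot1, an acyl-CoA thioesterase, differed by -0.36 (adjusted p = 0.0145) at its brightest probe, and its 3 probes spanned -0.36 to 0.05. It missed the threshold with their mean (adjusted p = 0.109) and without HFD 10, 11 or 12 (up to 0.0566). Without chow 3 the same 3 fell (Angptl4 by 0.73, Acot1 by 0.31 and Acadm by 0.28), and Fgf21 (0.26, adjusted p = 0.0404) and Acaa1b (0.27, adjusted p = 0.0140) were higher.

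**Figure D4:**
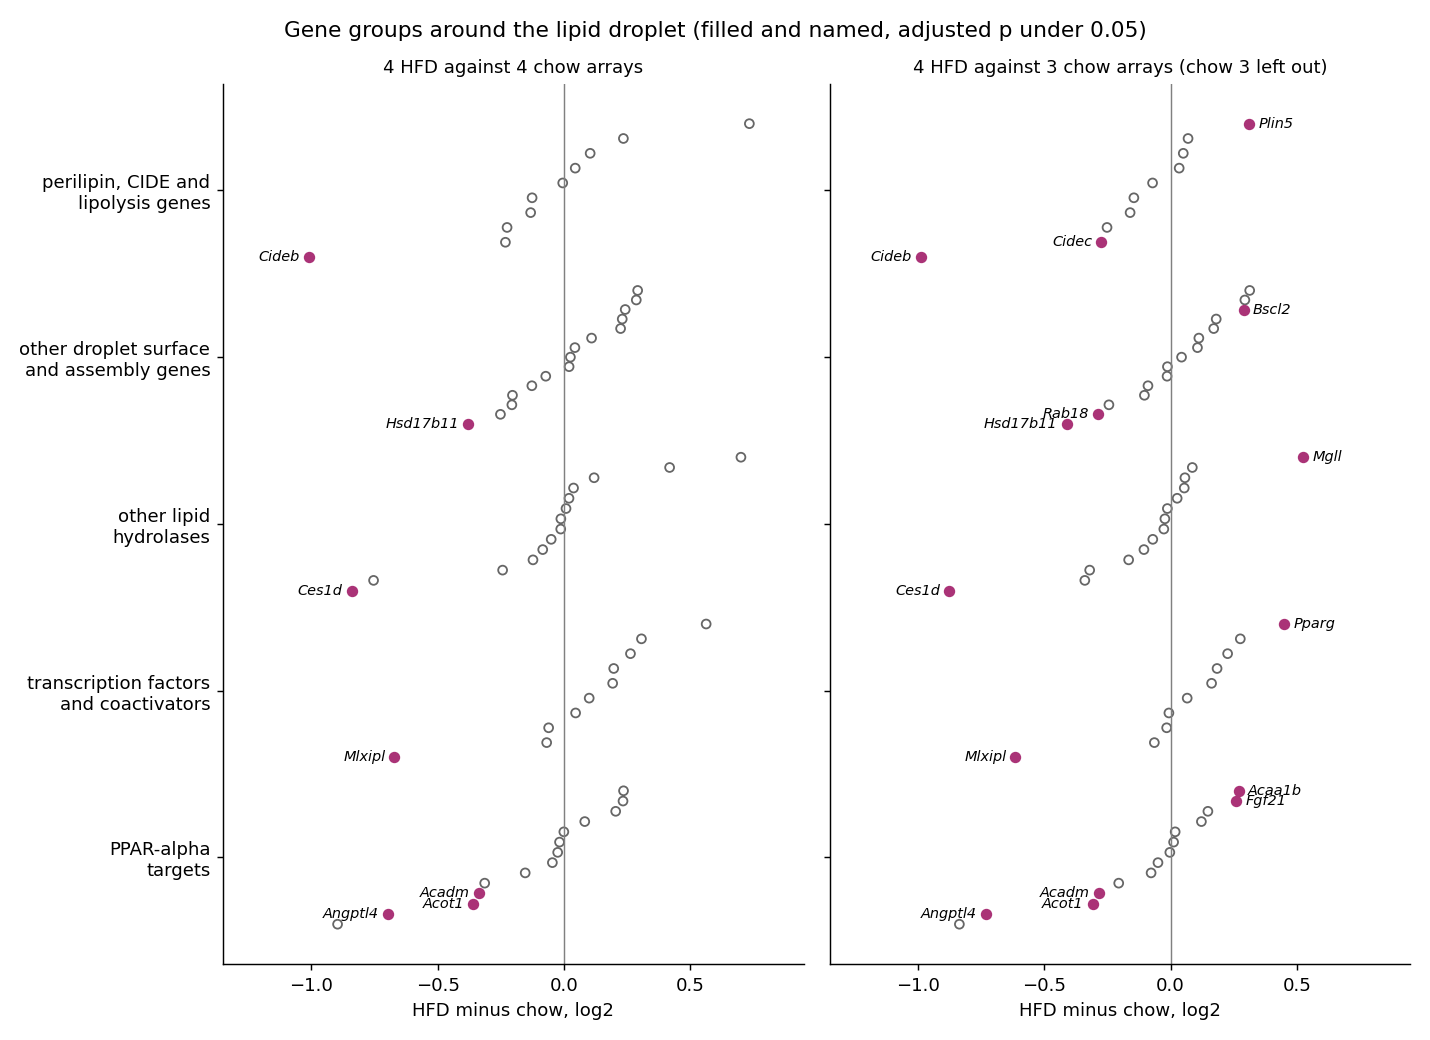
Differences between the diets (horizontal axes, HFD minus chow, log2) for the droplet genes and 4 related gene groups (rows), with all 8 arrays on the left and without chow 3 on the right. Each point is a gene, stacked by size within its group; filled, named points have an adjusted p under 0.05, and Cideb at -1.01 is the lowest point on the left.

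Markers of other cells moved with the diet in the same arrays. Over all genes 2.57% were lower and 1.47% higher in HFD, or 4.34% and 4.84% without chow 3. Among 14 markers of macrophages and Kupffer cells, 6 fell and 0 rose (median -0.69), and without chow 3, 9 fell and 0 rose (median -0.68). The mean level of that list was 8.72 to 8.77 on the chow arrays and 7.86 to 8.16 on the HFD arrays. Fcer1g, an Fc receptor chain, differed by -1.84, Laptm5, a lysosomal membrane protein gene, by -1.46, and Adgre1, the F4/80 antigen gene, by -1.11, with adjusted p-values up to 0.000593. The list did not move as one. Of its Kupffer cell genes, Clec4f, a lectin, differed by 0.12 (adjusted p = 0.651; 0.16 without chow 3) and Vsig4, a complement receptor, by -0.35 (adjusted p = 0.651; -0.16 without chow 3), both with overlapping groups. Clec4f was dim, at 7.66 to 8.07 over all arrays. Timd4 (difference 0.08) and Cd5l (-0.006) read below 8 on every array and missed the threshold in both comparisons. For Marco all HFD arrays lay below all chow arrays, with or without chow 3. Its difference of -0.47 missed the threshold (adjusted p = 0.0936), as did that of -0.39 without chow 3 (adjusted p = 0.0637). Of 7 sinusoidal endothelial markers 4 fell and 0 rose (median -0.38), with a list mean of 8.16 to 8.43 in chow and 7.76 to 7.83 in HFD. Without chow 3, 5 fell (list median -0.49) and 1, the lectin gene Clec4g, was higher (0.33, adjusted p = 0.00769; 0.22, adjusted p = 0.470 with all arrays). Clec4f, Vsig4, Timd4, Cd5l, Marco and Clec4g were also chosen for naming after their values were seen. Of 11 stellate cell and fibroblast markers 2 fell and 0 rose (median -0.03), as without chow 3 (median -0.04), with a list mean of 7.65 to 7.66 in chow and 7.51 to 7.52 in HFD. Of these 11 markers, 9 read below 8 on every array, so the list median mostly describes genes close to background. The 2 that fell read above 8 only on chow arrays, and on the HFD arrays they read at most 7.77. Of the 6 adipocyte markers measured none passed with or without chow 3 (0 by limma, and 0 at an unadjusted p under 0.05), and all 6 read below 8 on every array, with a list mean of 7.50 to 7.53 in chow and 7.45 to 7.52 in HFD. Among the adipocyte markers the smallest p-values were those of Fabp4 (-0.06, adjusted p = 0.592) and Plin1 (-0.07, adjusted p = 0.699). In bulk RNA, fewer cells of a type and less RNA per cell cannot be told apart. The part of the macrophage and endothelial shift in the values of Cideb, Cidec and Plin2 was not tested.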

How the data were processed

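The authors processed the arrays with lumi, per the submitters' processing notes; the sources used here do not give its version or steps. The deposited values are on a log2 scale, read from the values themselves (7.23 to 14.91). Sorted columns differed by at most 0.0026 from their mean, so the arrays had been brought to 1 distribution and were not normalized again; a change of all genes at once cannot be seen. Whether the scale is plain log2 or variance-stabilised is unknown. There is no count depth, and the number of arrays limits the precision.

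Probe names were updated through GRCm38.p6 gene tables (35784 probes with 1 symbol, 0 with several, 9497 with none). The diets were compared with limma 3.58.1 (R 4.3.3), by lmFit and eBayes without trend, no covariate, 2-sided, checked on simulated data. Alternatives were each array left out, trend and robust settings, array weights, the mean of a gene's probes, dropping probes at or below the median level, and quantile normalization. Members, gene lists and tests were chosen with earlier results of these data known. Named genes are all members and, per list, up to 3 genes of largest difference that passed, or 2 of smallest p. Hepatocyte markers and other genes named beyond this are identified in the text; endothelial and stellate genes that the rule picks are given as counts. Of 119 listed places 111 had a probe. Figures used matplotlib 3.10.9. No column was unused (0).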

Additional observations from a re-analysis of the deposited data

Results flagged for a closer look

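In the 20 sets of 4 arrays (10 genes, 2 diets), 4 arrays lay far from the other 3 of their diet by Dixon's test, where chance alone gives about 1 in 20. Chow 3 was such an array for Plin2 (9.10, the nearest other chow array at 13.03) and for Abhd5 (9.68, the nearest at 8.94). HFD 8 was one for Cidec (7.82, the nearest at 7.74, all close to background) and for Pnpla2 (10.66, the nearest at 10.80). The gap of Plin2 was the only one above 1 on the log2 scale.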

How the results depend on the processing

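Cideb kept its direction and its call under all 13 alternatives (-1.06 to -0.92, adjusted p 1.13e-05 to 0.00548). Not all of these could move it, because Cideb has 1 probe and the arrays already shared 1 distribution. Trend and robust settings, the mean of probes, dropping dim probes and quantile normalization all left the Cideb difference at -1.01. Of the 10 genes, 1 differed under all but 2 alternatives: over the left-out arrays the count ran from 1 to 3, the 3 being without chow 3, and with array weights it was 2 (Cideb and Plin5). Of their probes, 1 to 2 differed over the left-out arrays. Over all genes 820 differed, 447 to 1861 with an array left out and 1603 with array weights. The 1861 were without chow 3, and without HFD 8, 10, 11 or 12 the counts were 543, 457, 495 and 447. Higher against lower genes were 299 and 521 with all arrays, 981 and 880 without chow 3. Signs turned for Plin2 (-0.25 without chow 3, up to 1.07 without another array, -0.064 with array weights) and Abhd5 (0.069 without chow 3, down to -0.23 without another array, 0.031 with array weights). The sign of Plin3 turned too (0.056 without chow 1, 0.003 without HFD 10, 0.028 without HFD 11, down to -0.071 without chow 3). None of these passed the threshold in either direction. The cause was not tested. Plin4, Cidea, G0s2 and Pnpla2 passed under none of the 13 (lowest adjusted p 0.490, 0.462, 0.370 and 0.0858). No paired analysis was possible because the diets share no array numbers. Plin4, Cidea and the second Plin5 probe lay close to background, which limits the fall that could be seen. Cidec and the brighter Plin5 probe were dim.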
